A study of Sus scrofa with 20 samples.

Results

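NQO1, CAT, SOD1 and PRDX6, enzymes that protect cells from quinones, superoxide and peroxides, were measured by RNA-Seq in testis and liver of boars with divergent androstenone levels. The members were 8 antioxidant enzymes named by symbol, of which 4 were paired with a reference ID through RefSeq accessions, among 21755 reference IDs in all. These were NQO1 (NM_001159613.1), CAT (NM_214301.1), SOD1 (NM_001190422.1) and PRDX6 (NM_214408.1), with 1 reference ID each. SOD2, GPX1, GPX4 and HMOX1 had no matched reference ID and were not analysed here. The 20 libraries came from testis and liver of 10 entire male pigs, 116 days old on average, a Duroc cross with F2 animals of Leicoma, German Landrace and Large White origin. Of these boars 5 had low and 5 had high androstenone, the testicular steroid behind boar taint, in their fat. Each library was made from 1 sample of whole tissue. Genome positions and sequences of the members were not analysed here.

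Superoxide, which leaks from mitochondria and from cytochrome P450 reactions, is turned into hydrogen peroxide by superoxide dismutases. Catalase, glutathione peroxidases and peroxiredoxins then remove the peroxide. NQO1 reduces quinones in a step that avoids radical intermediates, and its gene is a classical target of the transcription factor NRF2 (gene NFE2L2), which KEAP1 holds in check. Liver is known for high catalase in its peroxisomes, and the Leydig cells of the testis carry P450 enzymes of steroid synthesis. The testis makes androstenone and the liver clears it, so the members were compared in both tissues.

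The testis libraries held 6161397 to 15975386 counts each, and the liver libraries 5796973 to 26783002. In testis 5 libraries held at most 7250104 and 5 held at least 12462278 counts, and in liver 5 held at most 8593568 and 5 at least 12862106, so each tissue had a shallow and a deep class. The spermatid genes TNP1, SPACA1 and ODF1 reached at most 3.19, 0.896 and 0.106 CPM (counts scaled to a library of 1000000) in any liver. ACRV1, another spermatid gene, was higher there and followed these classes. It had 4.10 to 9.84 CPM in the shallow and 76.9 to 210 CPM in the deep livers. Values below are therefore also given within each class where the direction changes. A floor of 3 counts corresponded to 0.112 to 0.518 CPM, and the lowest count of a member was 31. Liver markers matched the labels, as ALB (albumin) had at least 77583 CPM in every liver and at most 31.3 CPM in any testis. INSL3, a hormone of Leydig cells, had at least 569 CPM in every testis and at most 4.15 CPM in any liver. The Leydig cell markers CYP17A1 and LHCGR also had higher means in testis (290 and 7.52 CPM) than in liver (0.133 and 0.0321 CPM). HSD3B1, from the same list, did not, with means of 3.15 CPM in testis and 6.02 CPM in liver. Of the Sertoli cell markers (3 of 6 matched), SOX9 had means of 3.32 CPM in testis and 0.531 CPM in liver. AMH (6.15 and 4.70 CPM) and CLU (12515 and 9894 CPM) differed less between the tissues. Macrophage markers (3 of 8 matched) summed to 415 to 711 CPM in liver and 2.43 to 13.2 CPM in testis. HBB, the 1 matched red blood cell marker of 6, reached 476 to 3489 CPM in liver and 11.7 to 245 CPM in testis.

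**Figure D1:**
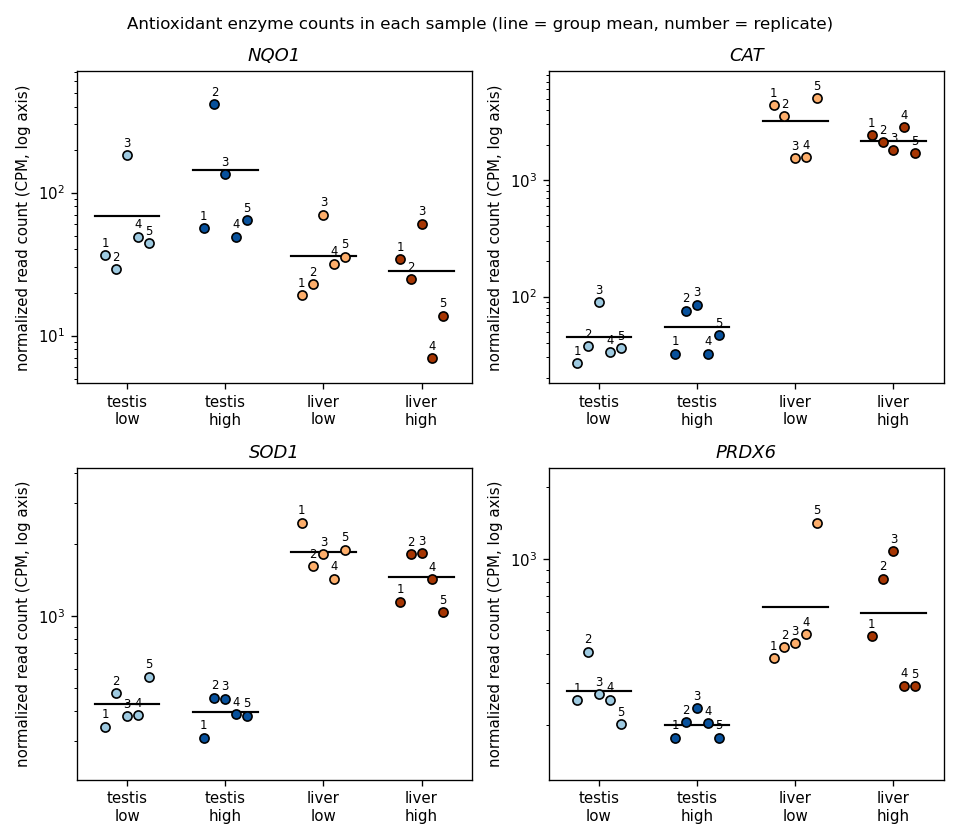
Normalized read counts (CPM, log axis) of NQO1, CAT, SOD1 and PRDX6 in each of the 20 samples by tissue and androstenone group. Points are samples numbered by replicate and lines are group means. CAT and SOD1 did not overlap between tissues, while NQO1 spread most within testis, from 29.0 to 415 CPM.

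Testis and liver were compared first, over all boars. CAT, SOD1 and PRDX6 were lower in testis than in liver, and NQO1 was higher in testis. All 4 passed the test, 1 higher and 3 lower. Of all 19065 reference IDs tested, 75.7% passed it (43.5% higher and 32.2% lower), so the number of called members is near the background and only their directions and sizes are described. A call needed a fold change of 1.5 or more and an adjusted p below 0.05 in edgeR's quasi-likelihood test. CPM were normalized by TMM over the 20 samples.

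CAT, the peroxisomal enzyme that splits hydrogen peroxide into water and oxygen, differed most. Low androstenone livers had 4375, 3512, 1542, 1564 and 5035 CPM in replicates 1 to 5, and high androstenone livers 2435, 2103, 1814, 2859 and 1696 CPM. In testis, CAT had 26.9, 37.2, 89.5, 33.1 and 36.0 CPM in the low and 32.3, 75.5, 84.9, 32.3 and 46.7 CPM in the high androstenone samples. Every liver lay above every testis. The mean was 2694 ± 1238 CPM (SD, n = 10) in liver and 49.4 ± 24.1 CPM (SD, n = 10) in testis, and CAT was 53.8-fold lower in testis (log2 fold change -5.75, standard error 0.34, edgeR adjusted p = 4.84e-14). Of all tested IDs, 2.59% were lower in testis by as much or more. The testis level was 1.84% of the liver level on average, and that of ALB was 0.00588%. The other matched liver markers varied, with means of 45.7 CPM in testis and 1504 CPM in liver for APOA1. Means were 4.97 and 2455 CPM for TF, and 4.85 and 8913 CPM for SERPINA1. Any carry-over of liver RNA into the testis CAT counts was not tested.

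SOD1, the copper and zinc superoxide dismutase of the cytosol, was the steadiest member. Low androstenone livers had 2473, 1626, 1826, 1437 and 1901 CPM and high androstenone livers 1148, 1815, 1840.0, 1425 and 1039 CPM. In testis, SOD1 had 343, 476, 379.8, 383 and 556 CPM in the low and 308, 454, 449, 388 and 381 CPM in the high androstenone samples. Again no testis reached the lowest liver. SOD1 was 3.99-fold lower in testis (log2 fold change -1.997, standard error 0.19, edgeR adjusted p = 5.43e-10). CAT and SOD1 were thus the 2 members whose tissues did not overlap, a state found for 42.8% of all tested IDs.

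PRDX6, a peroxiredoxin that repairs peroxidized membrane lipids, overlapped between the tissues. Low androstenone livers had 382, 424, 443, 482 and 1418 CPM and high androstenone livers 474, 825, 1079, 294 and 292 CPM. Testis samples had 254, 408, 269, 256 and 203 CPM in the low and 177, 206, 236, 205 and 178 CPM in the high androstenone group. Only low replicate 2 among the testes, at 408 CPM, exceeded any liver. PRDX6 was 2.59-fold lower in testis (log2 fold change -1.37, standard error 0.27, edgeR adjusted p = 6.42e-05). This call was lost when libraries were scaled by their total counts alone (log2 fold change -0.31, edgeR adjusted p = 0.214), as described with the scaling.

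NQO1, the quinone reductase, was the 1 member with more counts in testis. Low androstenone testes had 36.6, 29.0, 183, 49.2 and 44.1 CPM and high androstenone testes 56.2, 415, 135, 49.1 and 63.8 CPM. Livers had 19.2, 22.9, 70.0, 31.8 and 35.6 CPM in the low and 34.2, 24.8, 60.7, 6.94 and 13.7 CPM in the high androstenone group. The testis mean of 106 ± 119 CPM (SD, n = 10) rested on a few samples, since the testis median was 52.7 CPM against 28.3 CPM in liver, and the ranges overlapped. NQO1 was 3.11-fold higher in testis (log2 fold change 1.64, standard error 0.43, edgeR adjusted p = 0.00136). Without low replicate 3 and high replicate 2 of testis, its highest samples, the log2 fold change was 0.76 (edgeR adjusted p = 0.0354), and without high replicate 2 alone it was 1.18.

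The scaling of libraries changed values between these tissues. The median log2 fold change of all tested IDs, testis over liver, was 0.31 with TMM, -0.04 with upper quartile scaling and 1.28 with total counts alone. The share of called IDs that were higher in testis was 57.4% with TMM, 50.0% with upper quartile scaling and 76.0% with total counts alone. Relative to the median of all IDs, CAT stood at -6.06 with TMM and -6.02 with total counts alone, and SOD1 at -2.31 and -2.29. On the same relative scale PRDX6 stood at -1.68 and -1.59, and NQO1 at 1.33 and 1.38. A change of scaling shifts all IDs by nearly the same amount, so these relative values are almost fixed by construction and show no stability of the members. Red blood cells carry much CAT, SOD1 and PRDX6, and HBB was higher in the livers, but the part of blood in these levels was not tested. Fewer cells of a type and less RNA per cell cannot be told apart in whole tissue.

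Other genes of antioxidant defence were compared in the same way. Of 36 genes in the wider lists, 19 were matched and 18 tested, and 5 were higher and 7 lower in testis while 6 were not called. Among all tested IDs 75.7% were called (43.5% higher and 32.2% lower), so this number of calls is no result about the lists. Their median log2 fold change was -0.19, against 0.31 over all tested IDs. Among the peroxide-removing genes, 3 of 7 were higher and 1 was lower in testis. GPX8, a glutathione peroxidase-like protein of the endoplasmic reticulum, reached 15.3 ± 2.24 CPM in testis and 2.76 ± 0.743 CPM in liver (SD, n = 10 each, log2 fold change 2.46). PRDX5, a peroxiredoxin of mitochondria and peroxisomes, had 1602 ± 228 CPM in testis and 476 ± 89.0 CPM in liver (log2 fold change 1.75), and PRDX4, its relative in the secretory pathway, was higher in testis by a log2 fold change of 0.64. GPX3, the glutathione peroxidase secreted to plasma, was lower in testis at 32.1 ± 16.5 CPM against 142 ± 109 CPM in liver (log2 fold change -2.15). GPX2, GPX6 and SRXN1 were not called. Counts of GPX2 reached at most 10 in a sample and those of GPX6 at most 3. GPX5 was not tested, with 1 count in all.

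The thioredoxin system reduces peroxiredoxins, and of its 4 tested genes 1 was called higher and 3 lower in testis, where 75.7% of all IDs were called. TXN (thioredoxin) had 23.9 ± 8.60 CPM in testis and 124 ± 36.3 CPM in liver (log2 fold change -2.38). TXNIP, its inhibitor, and TXNRD2, the mitochondrial reductase, were lower in testis with log2 fold changes of -2.21 and -2.02. TXNRD1, the cytosolic reductase, was higher in testis at 89.8 ± 12.7 CPM against 42.7 ± 10.7 CPM (log2 fold change 1.09). FTH1, the ferritin heavy chain that stores iron, and BLVRA, which turns biliverdin into bilirubin, were lower in testis, with log2 fold changes of -1.94 and -1.89. NFE2L2, which encodes NRF2, had 72.1 ± 14.8 CPM in testis and 114 ± 28.2 CPM in liver (log2 fold change -0.66), and KEAP1 had 37.2 ± 3.83 and 37.1 ± 11.1 CPM (log2 fold change 0.00, edgeR adjusted p = 0.983). PGD, an NADPH source of the pentose phosphate pathway, was higher in testis (log2 fold change 0.83). GCLM, a subunit of the enzyme that starts glutathione synthesis, was not called (log2 fold change -0.58, edgeR adjusted p = 0.0224) since it missed the fold threshold, and neither was CCS, the copper chaperone of SOD1 (log2 fold change -0.39, edgeR adjusted p = 0.00865). With total counts alone, NFE2L2 was not called and had a log2 fold change of 0.34, CCS was at 0.58, and KEAP1, GPX6 and SRXN1 were called higher. Upper quartile scaling ended the calls of PRDX4 and PGD and called CCS and GCLM lower. Relative log expression scaling in edgeR called GPX6 higher.

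**Figure D2:**
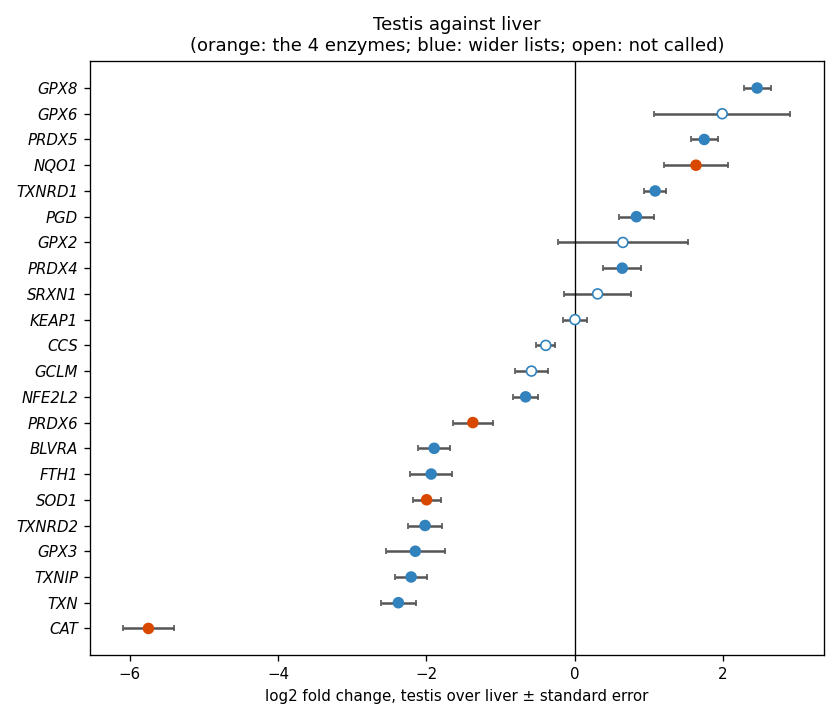
Log2 fold change, testis over liver, with its standard error for the 4 enzymes (orange) and 18 further antioxidant genes (blue). Filled points were called and open points were not. CAT at -5.75 lies farthest from 0, and NQO1 at 1.64 is the only orange point to the right of 0.

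High and low androstenone samples were then compared within each tissue. None of the 4 enzymes was called in testis or in liver. This is the background of these data, since 0% of 18340 reference IDs in testis and 0% of 15855 in liver were called. An unadjusted p under 0.05 was found for 1741 testis IDs (9.49%) and 465 liver IDs (2.93%) in edgeR's test, and for PRDX6 in testis alone among the members. PRDX6 was lower in the high group, as were 6.31% of testis IDs at that threshold. DESeq2 called 119 testis and 7 liver IDs, of which 0 were members. In no member did the high and low samples separate in either tissue, whereas 1.86% of testis IDs and 0.542% of liver IDs did.

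The paper placed NQO1 in a reproductive function group of its testis genes, although its list of differentially expressed testis genes lacks NQO1. NQO1 had the widest spread between boars. Its mean in testis was 144 ± 155 CPM (SD, n = 5) in the high and 68.3 ± 64.4 CPM (SD, n = 5) in the low androstenone group, so that each SD was about as large as its mean. A single sample, high replicate 2 at 415 CPM, lay above all low samples, and low replicate 3 at 183 CPM lay above the other 4 high samples. The log2 fold change, high over low, was 1.05 (standard error 0.59, edgeR adjusted p = 0.587), and the exact two-sided permutation test gave p = 0.246. It fell to 0.14 without high replicate 2 and reached 1.82 without low replicate 3. With both left out it was 0.93 (edgeR adjusted p = 0.461). Among the alternatives NQO1 was called in 1, edgeR's likelihood ratio test on the dispersion trend, which leaves out how much NQO1 itself varies between boars (adjusted p = 0.00214). Leydig cell markers (4 of 6 matched) summed to 823 to 3416 CPM in the high and 692 to 3326 CPM in the low testes, and most of this sum was INSL3. CYP17A1, a steroid-making P450 among these markers, had 375 ± 203 CPM in the high and 205 ± 88.5 CPM in the low testes (SD, n = 5 each, log2 fold change 0.86, unadjusted p = 0.0453, edgeR adjusted p = 0.513). The other matched Leydig cell markers differed less and not in 1 direction. Their log2 fold changes were 0.23 (INSL3), 0.18 (LHCGR) and -0.36 (HSD3B1). The part of Leydig cells in the NQO1 values was not tested.

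**Figure D3:**
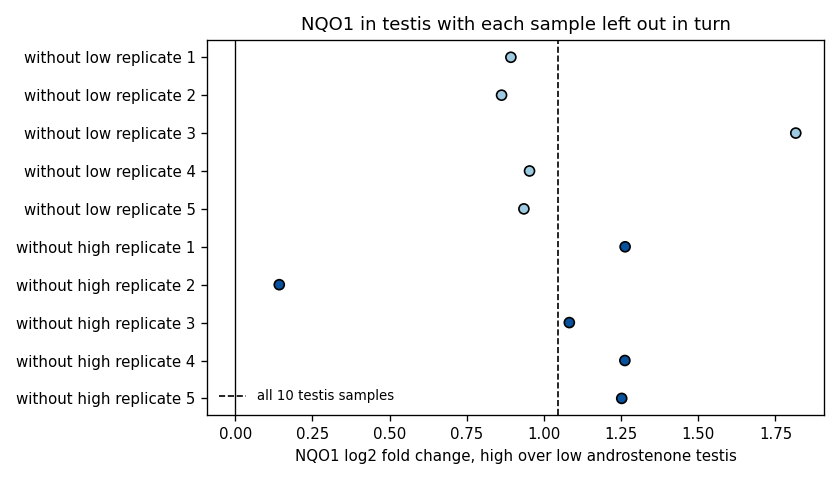
Log2 fold change of NQO1, high over low androstenone testis, refitted with edgeR after leaving out each testis sample in turn. The dashed line marks the value with all 10 samples, 1.05, and the values run from 0.14 without high replicate 2 to 1.82 without low replicate 3.

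The SD of log2 NQO1 counts within groups was 1.16 in testis and larger than that of 99.4% of the 14487 reference IDs with a mean of at least 10 counts. The median SD of these IDs was 0.337. In liver it was 0.969, larger than for 92.1% of 11830 IDs, where the median was 0.536. CAT also varied in testis (SD 0.657, above 94.7% of IDs). SOD1 (0.256) and PRDX6 (0.286) lay below the median SD of testis. In liver NQO1 had 35.9 ± 20.2 CPM (SD, n = 5) in the low and 28.1 ± 21.0 CPM (SD, n = 5) in the high group, and the log2 fold change was -0.34 (standard error 0.49, edgeR adjusted p = 0.99986, exact permutation p = 0.413). It became 0.11 without low replicate 3. Within the deep livers the high minus low difference of mean log2 NQO1 counts was 0.85, and within the shallow livers it was -1.78, with 2 or 3 samples on each side. By group means NQO1 was ordered as high androstenone testis, low androstenone testis, low androstenone liver and high androstenone liver, and neighbours in this order differed by less than the larger SD. Replicate 3 was the highest liver of both groups, at 70.0 and 60.7 CPM. In testis, replicate 3 was the highest low sample and the next to highest high sample. The labels do not state that testis and liver samples of the same number come from the same boar.

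CAT and NQO1 were high in the same testis samples. Low replicate 3, high replicate 2 and high replicate 3 were the 3 highest testes for both genes. The other testes had 29.0 to 63.8 CPM of NQO1 and 26.9 to 46.7 CPM of CAT. Pearson's r of log2 counts was 0.864 and Spearman's rho 0.673 over the 10 testis samples. Without the 2 samples farthest from the median NQO1 level, low replicate 3 and high replicate 2, r was 0.845. High replicate 3 remained in that set, so this value does not show the relation among the other testes. CAT ranked as number 3 in likeness to NQO1 among 4579 named IDs with a mean of at least 10 counts. Ahead of it stood HSD17B4 (r = 0.908), a peroxisomal enzyme of fatty acid oxidation, and CTSL (r = 0.869), a lysosomal protease, followed after CAT by TMEM68 (r = 0.864) and NIPAL3 (r = 0.863). These r are the highest of many and describe the 10 samples only. In liver the relation of NQO1 and CAT was not seen (r = -0.292, rho = -0.309), and CAT ranked as number 3011 of 4073. Without the 2 farthest livers r was -0.091. The genes most like NQO1 in liver were MB21D2, DPCD, MRPL20, DCPS and ARL6IP4, with r from 0.909 to 0.918. Leydig cell markers (4 of 6 matched) summed to 1462, 3416 and 2670 CPM in low replicate 3, high replicate 2 and high replicate 3, and to 692 to 3326 CPM in the other testes. Spermatid markers (4 of 8 matched) summed to 1263, 1268 and 1202 CPM in these samples and to 610 to 2181 CPM in the others. The Leydig sum of high replicate 2 was the highest of the 10 testes, and the other sums of the 3 samples lay within the range of the rest. The part of these cells in the NQO1 and CAT levels was not tested.

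**Figure D4:**
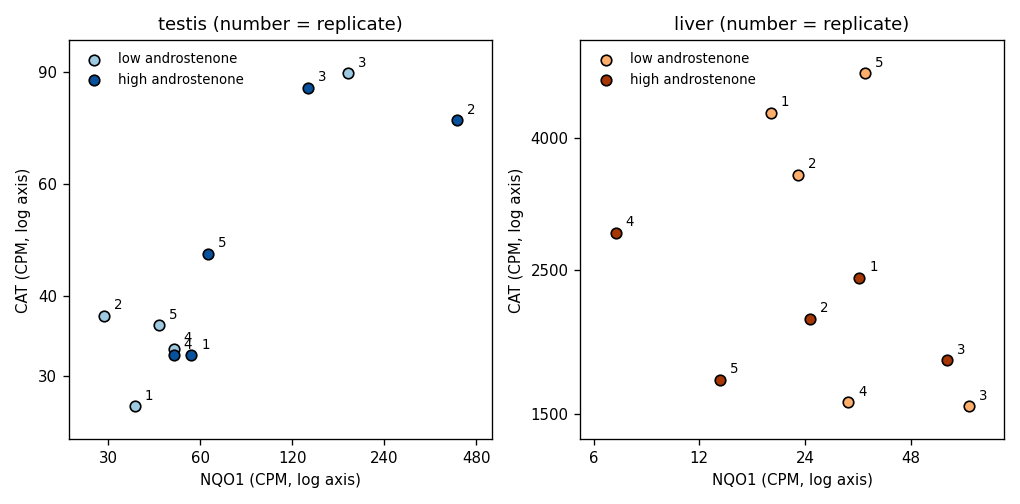
CAT against NQO1 (CPM, log axes) in the 10 testis samples (left) and the 10 liver samples (right), with points numbered by replicate and shaded by androstenone group. In testis low replicate 3, high replicate 2 and high replicate 3 lie apart at the upper right (r = 0.864), and in liver the points show no such order (r = -0.292).

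CAT itself had 54.3 ± 24.5 CPM (SD, n = 5) in the high and 44.5 ± 25.4 CPM (SD, n = 5) in the low androstenone testes, and the log2 fold change was 0.26 (standard error 0.33, edgeR adjusted p = 0.818, exact permutation p = 0.460). It was 0.06 without high replicate 3 and 0.68 without low replicate 3. In liver CAT had 2182 ± 474 CPM (SD, n = 5) in the high and 3206 ± 1602 CPM (SD, n = 5) in the low group. The low livers fell into 3 samples of at least 3512 CPM and 2 of at most 1564 CPM, and the high livers lay in between. The log2 fold change was -0.46 (standard error 0.37, edgeR adjusted p = 0.99986, exact permutation p = 0.325). It was -0.23 without low replicate 5, the highest liver, and -0.63 without low replicate 4. The 3 high values were all deep libraries. Within the deep livers the high minus low difference of mean log2 CAT counts was -1.02, and within the shallow livers it was 0.48. Over both groups, CAT had 3434 ± 1330 CPM in the 5 deep and 1953 ± 554 CPM in the 5 shallow livers (SD). Whether depth itself or the boars behind these libraries differ cannot be told apart.

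PRDX6 in testis was the 1 member that came closest to a group difference. The high androstenone samples lay between 177 and 236 CPM and the low samples between 203 and 408 CPM, with 2 high samples below all low ones. Means were 200.2 ± 24.3 CPM (SD, n = 5) in the high and 278 ± 76.9 CPM (SD, n = 5) in the low group. The log2 fold change was -0.49 (standard error 0.19, unadjusted p = 0.0186, edgeR adjusted p = 0.441), and 13.3% of testis IDs were lower by as much or more. The exact permutation test gave p = 0.0317, unadjusted for the 8 such tests made, and p = 0.0714 without TMM scaling, where the smallest p that 5 against 5 samples allow is 0.00794. The log2 fold change was -0.31 without low replicate 2, its highest sample, and -0.57 without low replicate 5. It was negative within both depth classes, at -0.33 in the deep and -0.65 in the shallow testes. HBB was also lower in the high testes, at 11.7 to 47.6 CPM against 25.6 to 245 CPM (log2 fold change -1.71, edgeR adjusted p = 0.354). Sertoli cell markers (3 of 6 matched, nearly all CLU) summed to 4027 to 13398 CPM in the high and 12119 to 21761 CPM in the low testes. CLU, which was also high in liver, had a log2 fold change of -0.72 (unadjusted p = 0.0299, edgeR adjusted p = 0.472). SOX9 stood at -0.38 (edgeR unadjusted p = 0.283) and AMH at -0.10 (edgeR unadjusted p = 0.722). Macrophage markers summed to 3.45 to 6.43 CPM in the high and 2.43 to 13.2 CPM in the low testes. Of these, CSF1R had a log2 fold change of -0.78 (unadjusted p = 0.0368, edgeR adjusted p = 0.488). C1QA stood at -0.67 (edgeR unadjusted p = 0.124) and CD14 at 0.02 (edgeR unadjusted p = 0.954). The part of these cells in the PRDX6 values was not tested. In liver PRDX6 had 593 ± 348 CPM (SD, n = 5) in the high and 630.0 ± 442 CPM (SD, n = 5) in the low group (log2 fold change -0.05, standard error 0.46, edgeR adjusted p = 0.99986, exact permutation p = 0.873). Low replicate 5 alone, at 1418 CPM, held 45.0% of its group's sum, and without it the log2 fold change was 0.50. Within the deep livers the difference was 0.22 and within the shallow livers -0.16.

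SOD1 differed little between the groups in testis, and its mean was lower in the high livers without a call. In testis it had 396 ± 59.7 CPM (SD, n = 5) in the high and 427 ± 86.9 CPM (SD, n = 5) in the low group (log2 fold change -0.13, standard error 0.18, edgeR adjusted p = 0.831, exact permutation p = 0.563), and the difference was -0.21 in the deep and 0.01 in the shallow testes. In liver it had 1453 ± 369 CPM (SD, n = 5) in the high and 1853 ± 391 CPM (SD, n = 5) in the low group, and 3 high livers lay below all low livers (log2 fold change -0.28, standard error 0.29, edgeR adjusted p = 0.99986, exact permutation p = 0.119). Without low replicate 1, the highest liver, it was -0.18. The high minus low difference of mean log2 SOD1 counts was -0.44 in the deep and -0.22 in the shallow livers.

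**Figure D5:**
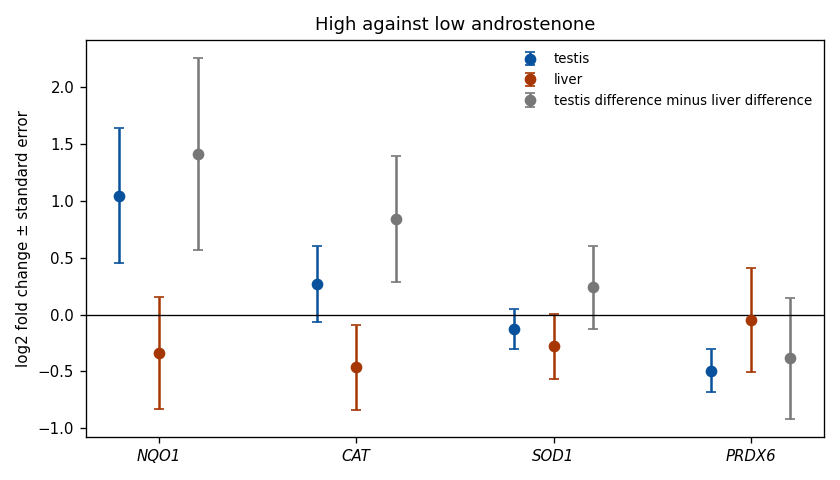
Log2 fold change, high over low androstenone, with its standard error for each enzyme in testis, in liver, and as the testis difference minus the liver difference. Values in testis run from -0.49 (PRDX6) to 1.05 (NQO1) and in liver from -0.46 (CAT) to -0.05 (PRDX6), and none passed the threshold.

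The difference between the tissues in the androstenone contrast was tested directly. For NQO1 the testis difference exceeded the liver difference by 1.41 on the log2 scale (standard error 0.85, unadjusted p = 0.108) and for CAT by 0.84 (standard error 0.56, unadjusted p = 0.143). For SOD1 and PRDX6 it was 0.24 and -0.39. Single samples moved these values. NQO1 was at 0.49 without high replicate 2 and at 2.19 without low replicate 3 of testis, and CAT at 1.26 without low replicate 3 of testis. SOD1 was at 0.11 without low replicate 1 of liver. PRDX6 was at -0.06 without high replicate 3 and at -0.93 without low replicate 5 of liver. None passed (edgeR adjusted p = 0.99999 in every case), and 0% of 19065 IDs were called. In the same test 890 IDs (4.67%) had an unadjusted p under 0.05, and DESeq2 called 1 ID.

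The wider lists gave 0 called genes in either tissue (18 tested in testis, 16 in liver), with 0 at an unadjusted p under 0.05 in edgeR's test in either. Their median log2 fold change, high over low, was -0.06 in testis and 0.06 in liver, against -0.02 and 0.01 over all tested IDs. The medians of the 6 lists lay between -0.25 (thioredoxin system, and BLVRA alone) and 0.33 (glutathione supply and NADPH) in testis, and between -0.30 (BLVRA alone) and 0.43 (glutathione supply and NADPH) in liver, with 1 to 7 genes tested per list. NFE2L2, which encodes NRF2, stood at -0.27 in testis and -0.03 in liver, and KEAP1 at -0.14 in both.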

How the data were processed

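RNA-Seq counts of testis and liver from 5 low and 5 high androstenone boars were used. The authors processed the sequencer output in CASAVA 1.7, mapped it by BWA at default settings against a set of Sscrofa 9.2 transcripts (mRNAs of RefSeq plus UniGene candidates), and deposited raw read counts per reference ID. How reads that fit several references were counted is not given in the sources used here. Files listed 21785 lines for 21755 IDs, as 10 IDs were repeated 4 times with equal counts and used once. Symbols came from RefSeq accessions of Sscrofa11.1 without version (6654 IDs), which gave no transcript lengths, so levels were not compared between genes.

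IDs with at least 10 summed counts were tested with edgeR 4.0.16 in R 4.3.3 (TMM, quasi-likelihood test, Benjamini-Hochberg), with the thresholds given above for a call. The groups were compared within each tissue, the tissues and the interaction over all 20 samples. Standard errors were derived from the F statistic. Exact two-sided permutation tests used log2(CPM + 0.5). DESeq2 1.42.0, other scalings and filters, a replicate block and leaving out each sample were alternatives. Total count scaling, the depth class and leaving out both highest NQO1 testes were added after seeing the data. The procedure was tested on simulated data. All 4 matched members were named, with called genes of the wider lists (at most 3 per list and direction) and the 5 IDs most like NQO1. Further genes, such as those not called, were chosen after their values were seen. Members and lists were chosen with earlier results of these data known. Counting floors cover counting error only. P-values set a difference against the spread between these samples. The main tissue and interaction tests treated the 20 libraries as independent, although they came from testis and liver of the same 10 boars. The replicate block joined testis and liver libraries of the same group and number in these tests. Within a tissue it joined a low and a high sample of the same number, which are different boars. Python 3.11.15 with scipy 1.17.1 was used for summaries.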

Additional observations from a re-analysis of the deposited data

Results flagged for a closer look

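Within the 16 combinations of 4 enzymes and 4 groups, 4 had a sample whose distance from the nearest other took most of the group's range, by Dixon's criterion. Chance alone marks about 1 group in 20 where values are normally distributed. The criterion was applied to CPM without logs, so this rate may not hold here. NQO1 at 183 CPM in low replicate 3 of testis was separated by 0.869 of the range of its group, and NQO1 at 415 CPM in high replicate 2 of testis by 0.764. CAT at 89.5 CPM in low replicate 3 of testis, the same library as for NQO1, was separated by 0.835. PRDX6 at 1418 CPM in low replicate 5 of liver was separated by 0.904.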

How the results depend on the processing

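Testis against liver kept 4 called members under the other scalings, filters, tests and covariates, with 12551 to 14641 called IDs and 14270 to 14434 when a sample was left out, and with total counts alone (14925 called IDs) PRDX6 lost its call at -0.31. High against low androstenone called 0 IDs in either tissue in edgeR's quasi-likelihood test, but DESeq2 called 119 in testis (38 higher, 81 lower), 7 in liver and 1 in the interaction, and the trended dispersion called 225, 45 and 46. Leaving out a sample gave 0 to 2 calls in testis (2 without low replicate 5), 0 in liver and 0 in the interaction. The number of members with an exact permutation p under 0.05 was 1 of 8 tests, and 0 without TMM scaling. Liver NQO1 ranged from -0.80 to 0.11 over left-out samples and liver PRDX6 from -0.35 to 0.50, where the latter changed sign for 4 of 10 left-out samples. PRDX6 in liver also turned to 0.0273 with the total count as a covariate, 0.0290 with the replicate block and 0.0668 with the depth class. The cause was not tested. Same-numbered samples did not deviate together throughout (r from -0.05 to 0.15 in testis, -0.30 to 0.43 in liver, and -0.04 to 0.34 between tissues), and the own number was the best match for 1 of 5 numbers in testis and 1 in liver, and between tissues for 2 of 5 in the low and 2 of 5 in the high group. The mean r between tissues was 0.0666 for same and -0.0169 for other numbers in the low group, and 0.151 and -0.0394 in the high group. The replicate block left 0, 0 and 0 calls in testis, liver and the interaction and 14201 between tissues. GPX2 and GPX6 lay near the floor of 3 counts, so their values have little precision at this depth.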

Other observations

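The reference IDs most like the other enzymes across the 10 samples of a tissue, by Pearson's r of log2 counts, were described in the same way as for NQO1. In testis they were PGGT1B for CAT (r = 0.955), MRI1 for SOD1 (r = 0.968) and PJA1 for PRDX6 (r = 0.965). In liver they were LOC100517502 for CAT (r = 0.915), PARK7 for SOD1 (r = 0.915) and CLDN2 for PRDX6 (r = 0.966). PARK7 encodes DJ-1, a protein known to protect cells from oxidative stress. Each is the highest of 4579 values in testis or 4073 in liver.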
